A study of Mus musculus with 12 samples.

Results

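Gad1, Gad2, Slc6a9, Chat, Th, Slc32a1, Slc17a8, Tfap2a, Tfap2b and Calb2 are 10 genes by which amacrine cells of the mouse retina and their subtypes are recognised. They were taken as a list of symbols and found in the count data through their Ensembl identifiers, 10 of the 54146 genes counted. The rule that chose them used no measured value, but the list was made with earlier results of these data known. All 10 passed the filter on low counts that kept 18628 genes for testing. The study deleted the transcription factor gene Otx2 in photoreceptors of adult mice and followed the RNA of the whole retina for several days. Amacrine cells were not the cells in which the deletion was made, so their genes ask whether the inner retina moved while the photoreceptors lost Otx2.

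RNA of whole retina was sequenced as 1 library per mouse, with 3 mice in each of 4 groups. The P30 control mice carry the numbers 1 to 3 and were 30 d old. Their label gives the genotype as control and no day after induction, and does not say whether they carried the Cre or floxed alleles or received tamoxifen. The knockout (cKO) mice were Crx-CreERT2;Otx2 flox/flox animals that received a single injection of tamoxifen at P30 and were killed 2 d later at P32 (mice 4 to 6), 4 d later at P34 (mice 7 to 9) or 8 d later at P38 (mice 10 to 12). Crx-CreERT2 is a Cre recombinase that tamoxifen activates and that is driven from the promoter of Crx, a photoreceptor gene, and the labels name the photoreceptor as the cell type of the ablation. The cKO mice thus differed from the P30 mice in age and in the deletion at once, and possibly in tamoxifen, which cannot be told apart, and each p-value below measures the spread between single mice.

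Amacrine cells are inhibitory interneurons of the inner retina. They receive input from bipolar cells and act back on bipolar cells, on ganglion cells and on each other in the inner plexiform layer. Most release either GABA or glycine as their main transmitter, and smaller subtypes add acetylcholine, dopamine, glutamate or a neuropeptide. Otx2 is known in the adult eye as a gene of photoreceptors, bipolar cells and the retinal pigment epithelium (RPE), and is not a gene amacrine cells are known for.

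Counts on genes came to between 29701483 and 60145034 per library, so that 3 counts correspond to 0.0473 to 0.102 CPM, the counts of a gene scaled by the size of its library. The lowest count of any of the 10 genes in any mouse was 136, for Th, and the values below are therefore well above the counting floor, which covers counting error only. Otx2 itself measured 293 to 328 CPM in the P30 mice and 307 to 377 CPM in the 9 cKO mice, and did not pass the test at any age (log2 fold change of 0.14, 0.15 and 0.17 at P32, P34 and P38). Cre removes 1 coding exon of Otx2 and the count sums all exons, so this level does not check the labels. P32 mouse 4 stood apart from the other libraries, at −89.6 on the first principal component (33.7% of the variance), where the other 11 mice lay between −40.4 and 42.5. The summed CPM of 8 lens genes was 280 to 765 in the P34 mice, 532 to 39457 at P30, 749 to 45771 at P32 and 5320 to 13674 at P38, and Xist was present (above 100 CPM) in all 3 P30 mice, in 2 P32 mice, in 1 P34 mouse and in 1 P38 mouse. Lens genes and the presence of Xist therefore differed between the groups, and their part in the values below was not tested beyond the fits given in the closing section.

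None of the 3 GABA genes of the list passed the test against P30 at any age. Gad1 and Gad2 encode the 2 glutamate decarboxylases that make GABA, GAD67 and GAD65, and Slc32a1 encodes VGAT, the transporter that loads GABA and glycine into synaptic vesicles. Gad1 (ENSMUSG00000070880) lies on chromosome 2 of GRCm38 from 70553072 to 70602014 on the plus strand. Gad1 measured 391, 378 and 387 CPM in the P30 mice, 370, 396 and 434 in the P32 mice, 510, 396 and 463 in the P34 mice and 324, 413 and 378 in the P38 mice. The 3 P34 mice were all above the 3 P30 mice, as in 10.4% of all genes tested, and the other ages overlapped with P30. The fitted log2 fold change of Gad1 against P30 was 0.05 (95% interval −0.22 to 0.32) at P32, 0.24 (−0.03 to 0.52) at P34 and −0.05 (−0.32 to 0.22) at P38, with edgeR adjusted p = 0.888, 0.528 and 0.961. Without P34 mouse 7, which had the highest Gad1 of all 12 mice, the difference at P34 was 0.15.

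Gad2 (ENSMUSG00000026787, chromosome 2 of GRCm38 from 22622205 to 22693874, plus strand) measured 68.0, 74.0 and 84.4 CPM in the P30 mice, 47.2, 68.1 and 83.9 in the P32 mice, 94.9, 80.4 and 93.6 in the P34 mice and 67.1, 89.5 and 76.6 in the P38 mice. The low value at P32 is that of mouse 4, and every group overlapped with the P30 mice. The log2 fold change of Gad2 was −0.18 (95% interval −0.58 to 0.21) at P32, 0.25 (−0.15 to 0.65) at P34 and 0.04 (−0.36 to 0.44) at P38. Between P34 and P32 the difference of Gad2 was 0.43 (edgeR adjusted p = 0.161), which was 0.24 without P32 mouse 4 and 0.64 without P32 mouse 6, where it passed (edgeR adjusted p = 0.0323) as did 14.3% of all genes tested in that fit. Slc32a1 (ENSMUSG00000037771, chromosome 2 of GRCm38 from 158610767 to 158615748, plus strand) measured 58.3, 65.3 and 68.1 CPM in the P30 mice, 65.2, 65.9 and 69.2 in the P32 mice, 81.2, 57.7 and 80.8 in the P34 mice and 51.8, 76.1 and 58.6 in the P38 mice. In this gene 2 P34 mice were above all other mice and the third, mouse 8, was below the lowest P30 mouse, so the P34 mice did not move together. The log2 fold change of Slc32a1 was 0.06, 0.20 and −0.04 at P32, P34 and P38, with standard errors of 0.16. Exons of Slc32a1 share 697 bases with Gm14205 on the opposite strand, and whether strand was used in the counting is not given in the sources used here.

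The start regions of the 2 decarboxylase genes are shown because the targeted factor OTX2 and the AP-2 factors among the 10 genes have known DNA letters that can be looked for there. The windows are RefSeq's, on GRCm38.p6, and hold 250 bases before and 50 bases after the start of transcription. They were found for 9 of the 10 genes, with no entry for Calb2. TAATCC, the letters bound by OTX2 and CRX, read on both strands, occurred in 7.06% of 32851 windows and among the 9 genes in that of Gad1 alone. GCCNNNGGC, the letters of AP-2 factors, which read the same on both strands, occurred in 16.6% of windows and among the 9 genes in that of Gad2 alone. The 2 sets of letters share no bases in these windows. Below, each window is printed 5′ to 3′ on the plus strand up to the first exon of the gene in the window, from chr2:70561879-70562041 for Gad1 and chr2:22622077-22622204 for Gad2, with the matching letters in capitals.
Gad1: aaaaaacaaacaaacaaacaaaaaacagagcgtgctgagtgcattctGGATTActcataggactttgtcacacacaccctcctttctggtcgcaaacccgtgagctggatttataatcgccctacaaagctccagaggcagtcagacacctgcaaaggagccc
Gad2: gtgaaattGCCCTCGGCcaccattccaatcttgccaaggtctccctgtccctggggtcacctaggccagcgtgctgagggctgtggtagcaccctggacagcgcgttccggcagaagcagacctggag
GENCODE's Gad1 begins further upstream, at 70553072, so that the RefSeq start used here lies inside the gene as GENCODE gives it. The match in Gad1 is the reverse complement of the letters searched, and Gad2 holds a further match inside its first exon that is not printed. A match of letters is a description and not a binding site, and no binding was measured here.

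**Figure D1:**
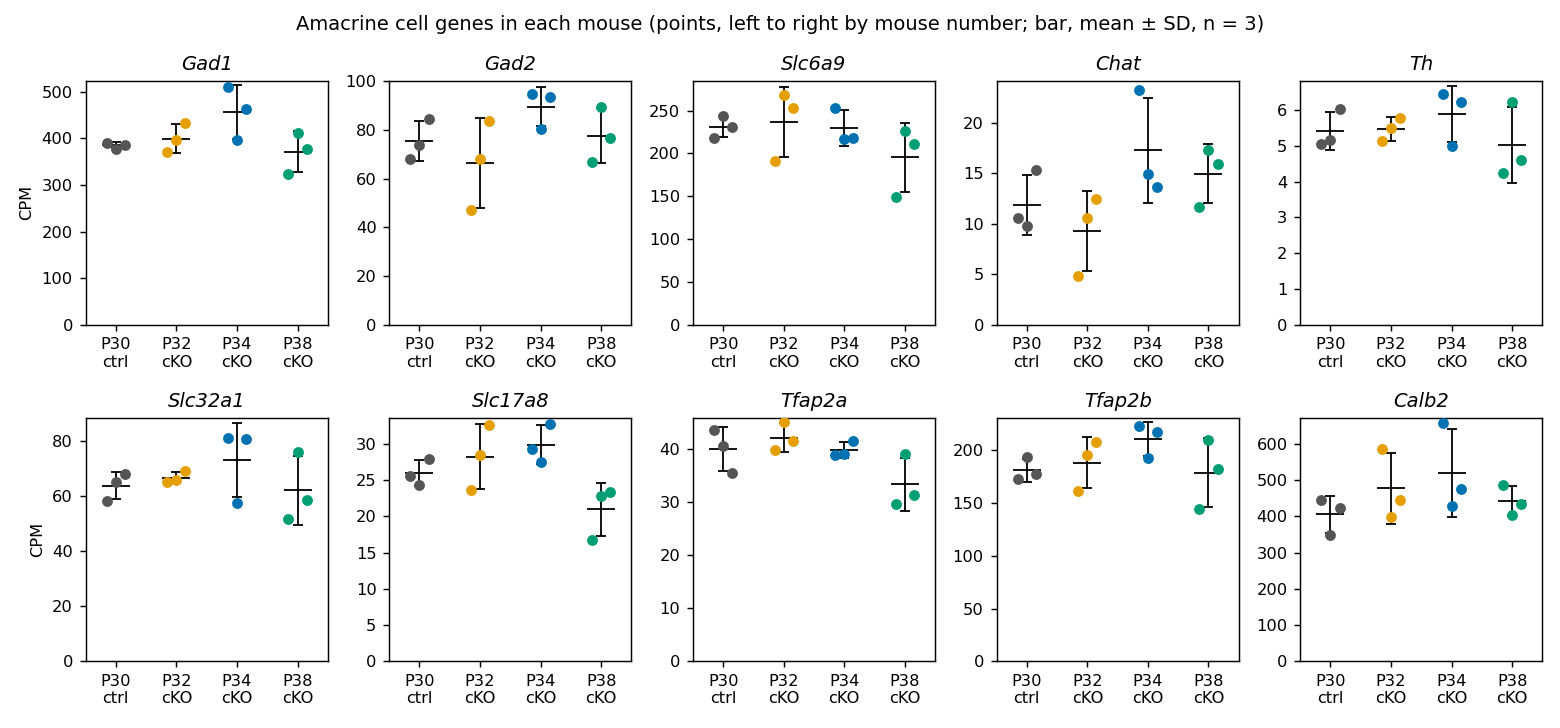
CPM of the 10 genes (vertical axis, from 0) in each mouse (points), for the P30 control mice and the cKO mice at P32, P34 and P38 (horizontal axis), with the mean and SD of the 3 mice as bars. Most groups overlap with P30; P34 mouse 7 is the highest point in 7 genes and P38 mouse 10 the lowest in 7 genes.

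Slc6a9, the glycine gene of the list, did not pass the test at any age. It encodes GlyT1, the transporter that takes glycine back up and marks glycinergic amacrine cells. Slc6a9 (ENSMUSG00000028542, chromosome 4 of GRCm38 from 117834506 to 117875198, plus strand) measured 218, 244 and 231 CPM in the P30 mice, 191, 268 and 253 in the P32 mice, 253, 217 and 218 in the P34 mice and 150, 226 and 210 in the P38 mice. The lowest value is that of P38 mouse 10, and every group overlapped with P30. Against P30, its log2 fold change was 0.04 (95% interval −0.32 to 0.39) at P32, −0.01 (−0.36 to 0.34) at P34 and −0.24 (−0.60 to 0.11) at P38. Exons of Slc6a9 share 1429 bases with Ccdc24, 511 bases with Gm17114 and 46 bases with B4galt2, all on the opposite strand, so reads there could belong to either gene if strand was not used.

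Chat, the choline acetyltransferase that makes acetylcholine in starburst amacrine cells, was the most variable of the 10 genes and did not pass the test against P30 at any age. Chat (ENSMUSG00000021919, chromosome 14 of GRCm38 from 32408203 to 32465989, minus strand) measured 10.6, 9.73 and 15.3 CPM in the P30 mice, 4.80, 10.5 and 12.4 in the P32 mice, 23.2, 14.9 and 13.6 in the P34 mice and 11.7, 17.3 and 15.9 in the P38 mice. The P34 mice were all above the P32 mice (as in 14.8% of all genes), and the P30 mice overlapped with every cKO group. Against P30 its log2 fold change was −0.35 (95% interval −1.06 to 0.35) at P32, 0.54 (−0.16 to 1.24) at P34 and 0.34 (−0.37 to 1.04) at P38. With 1 mouse left out at a time it ran from −0.62 to −0.05 at P32 and from 0.26 to 0.75 at P34. Between P34 and P32 the difference was 0.90 (95% interval 0.19 to 1.61; edgeR adjusted p = 0.122), which did not pass by edgeR (0.242% of all genes did) and passed by the Wald test of DESeq2 (adjusted p = 0.0449), as did 8.65% of the genes it gave an adjusted p. That difference was 0.59 without P32 mouse 4 and 0.63 without P34 mouse 7, with edgeR adjusted p = 0.315 and 0.287. Without P32 mouse 6 it was 1.17 and passed (edgeR adjusted p = 0.0427), in the fit in which 14.3% of all genes did. Over all settings tried the adjusted p of this difference ran from 0.0427 to 0.885.

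Slc18a3, which encodes the vesicular transporter of acetylcholine and lies within the Chat gene on the same strand with no shared exon bases, gives a second reading of the same cells. The ratio of Chat to Slc18a3 in CPM was 1.46 to 1.70 in the P30 mice, 1.47 and 1.58 in P32 mice 5 and 6, 1.21 to 2.30 at P34 and 1.5 to 1.57 at P38. In P32 mouse 4 it was 0.432, outside the range of the other 11 mice. In this mouse Chat was the lowest of all 12 mice while Slc18a3, at 11.1 CPM, was above all 3 P30 mice (6.23, 6.68 and 9.69 CPM).

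In the same library, levels over all genes varied with exon length. For each gene the log2 CPM of a library was taken relative to the mean of the other 11 mice. With all genes sorted by exon length into 5 equal groups, the median of these differences in P32 mouse 4 was 0.52 in the shortest group. It was 0.29, 0.04 and −0.17 in the next 3, and −0.44 in the longest. In the other 11 mice the same 5 medians lay between −0.16 and 0.17. Of the 10 genes only Calb2 is in the shortest group, Th and Slc32a1 are in the second, Gad1 is in the longest, and Gad2, Slc6a9, Chat, Slc17a8, Tfap2a and Tfap2b are in the fourth. The 10 genes did not follow this order one by one. On the log2 scale mouse 4 differed from the mean of the other 11 mice by −0.12 in Gad1, in the longest group, and by −0.75 in Gad2, −1.5 in Chat and 0.05 in Tfap2a, all 3 in the fourth group. In mouse 4 the ratio of Calb2 to Gad2 was 12.4 (4.52 to 7.27 in the other 11 mice) and that of Gad1 to Gad2 was 7.85 (4.58 to 5.81), while that of Tfap2b to Tfap2a was 4.04 (3.94 to 5.82). Gad1 is longer than Gad2 by summed exons, and its longest transcript is shorter (3601 against 5744 bases). The part of length in the P32 values was not tested beyond a fit with a length term, in which the difference of Chat between P34 and P32 was 0.15 and that of Gad2 was −0.07. In that fit the difference of Chat from P30 was 0.0018 at P32 and −0.022 at P38.

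Th, the tyrosine hydroxylase that is rate-limiting for dopamine and marks dopaminergic amacrine cells, had the fewest counts and did not pass the test at any age. Th (ENSMUSG00000000214, chromosome 7 of GRCm38 from 142892752 to 142931128, minus strand) measured 5.05, 5.17 and 6.03 CPM in the P30 mice, 5.13, 5.51 and 5.79 in the P32 mice, 6.46, 5.00 and 6.23 in the P34 mice and 4.25, 6.24 and 4.62 in the P38 mice. All groups overlapped with P30. Fitted against P30, the difference on the log2 scale was 0.02 (95% interval −0.37 to 0.41) at P32, 0.12 (−0.27 to 0.51) at P34 and −0.10 (−0.49 to 0.29) at P38.

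Slc17a8 was the gene whose P38 mice lay lowest, and it did not pass the test after adjustment. It encodes VGluT3, the vesicular glutamate transporter of a subtype of amacrine cell that also uses glycine. Slc17a8 (ENSMUSG00000019935, chromosome 10 of GRCm38 from 89574020 to 89621253, minus strand) measured 25.5, 24.4 and 27.9 CPM in the P30 mice, 23.7, 28.4 and 32.6 in the P32 mice, 29.2, 27.5 and 32.8 in the P34 mice and 16.8, 22.8 and 23.4 in the P38 mice. The 3 P38 mice were below all 9 mice of the other groups. All P38 values were below all P30 values in 7.96% of all genes tested, and below all P32 values in 13.2%. Against P30 the log2 fold change was 0.12 (95% interval −0.20 to 0.45) at P32, 0.20 (−0.12 to 0.53) at P34 and −0.30 (−0.63 to 0.02) at P38. Between P38 and P34 it was −0.51 (95% interval −0.83 to −0.18) with an unadjusted p of 0.0055 and an edgeR adjusted p = 0.485. Values of P38 and P34 did not overlap, P38 below, in 4.58% of all genes tested, and an unadjusted p of at most 0.05 was reached by 5.08% of them. Without P38 mouse 10, the lowest mouse, the difference was −0.37 from P34 and −0.16 from P30.

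The AP-2 genes also did not pass. Tfap2a and Tfap2b encode AP-2α and AP-2β, transcription factors needed for the development of amacrine and horizontal cells and kept in mature amacrine cells. Tfap2a (ENSMUSG00000021359, chromosome 13 of GRCm38 from 40715302 to 40738376, minus strand) measured 43.8, 40.7 and 35.6 CPM in the P30 mice, 39.8, 45.2 and 41.6 in the P32 mice, 39.0, 39.1 and 41.7 in the P34 mice and 29.7, 39.1 and 31.3 in the P38 mice. Mice 10 and 12 at P38 were the 2 lowest of the 12, and mouse 11 was within the range of P30. All 3 were below the P32 mice, as in 13.2% of all genes tested. For Tfap2a the log2 fold change was 0.07 (95% interval −0.18 to 0.33) at P32, 0.00 (−0.26 to 0.25) at P34 and −0.26 (−0.52 to 0.00) at P38, the last with an unadjusted p of 0.0486 and an edgeR adjusted p = 0.847. Tfap2a was the only 1 of the 10 genes with an unadjusted p of at most 0.05 against P30 at P38, a level reached by 5.64% of all genes, and its difference was −0.18 without P38 mouse 10. Exons of Tfap2a share 380, 265 and 73 bases with 3 genes on the opposite strand (Gm26688, Gm47061 and Gm47067).

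Tfap2b (ENSMUSG00000025927, chromosome 1 of GRCm38 from 19208914 to 19238576, plus strand) measured 172, 193 and 177 CPM in the P30 mice, 161, 195 and 208 in the P32 mice, 223, 192 and 217 in the P34 mice and 145, 209 and 182 in the P38 mice. P34 mice 7 and 9 were the 2 highest of the 12 and P34 mouse 8 lay within the range of P30. For Tfap2b the log2 fold change was 0.06 (95% interval −0.25 to 0.36) at P32, 0.22 (−0.08 to 0.52) at P34 and −0.02 (−0.32 to 0.29) at P38.

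Calb2 encodes calretinin, a calcium-binding protein of AII and other amacrine cells that is also found in ganglion cells. Calb2 (ENSMUSG00000003657, chromosome 8 of GRCm38 from 110137502 to 110168210, minus strand) measured 444, 348 and 423 CPM in the P30 mice, 585, 399 and 446 in the P32 mice, 656, 427 and 475 in the P34 mice and 488, 404 and 434 in the P38 mice. The 2 highest values are those of P34 mouse 7 and P32 mouse 4, and every group overlapped with P30. For Calb2 the log2 fold change was 0.23 (95% interval −0.17 to 0.64) at P32, 0.36 (−0.05 to 0.76) at P34 and 0.13 (−0.28 to 0.53) at P38. It was 0.06 at P32 without mouse 4 and 0.15 at P34 without mouse 7.

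Against P30, 0 of the 10 genes passed an adjusted p of 0.05 and a log2 fold change of 0.5 in size at any age by edgeR, and 0 passed by DESeq2. Of all genes tested, 0% passed by edgeR at P32, 0.66% at P34, all of them lower, and 0% at P38. By DESeq2 0.134, 1.98 and 0.242% of the genes it gave an adjusted p passed at P32, P34 and P38. At an unadjusted p of at most 0.05 with no limit on the fold change, the counts among the 10 genes were 0, 0 and 1 at P32, P34 and P38, and the shares of all genes were 5.64, 10.5 and 5.64%. With the 9 cKO mice as 1 group, 0 of the 10 genes passed (0.0537% of all genes), and 0 had an unadjusted p of at most 0.05 (2.63%). An F test for any difference among the 4 groups also called 0 of the 10 (0.344% of all genes), with 1 gene, Slc17a8, at an unadjusted p of 0.0284 (17.2% of all genes were at or below 0.05).

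How large a change the data leave room for differs between ages. The 95% interval of the log2 fold change lay wholly within ±0.5 for 7 of the 10 genes at P32 but for 2 at P34, for 5 at P38 and for 8 with all cKO mice as 1 group. Among all genes tested these shares were 36.7, 38.2, 40.3 and 50.3%. Chat had the widest interval at each age, and for Chat a difference of 1 log2 unit from P30 lies inside the interval at P32, P34 and P38. On counts simulated for P34 against P30 at these depths, 43 of 100 genes changed by 1 log2 unit and 85 of 100 changed by 2 were recovered. The changed genes were drawn at random from all genes tested, so these rates are not those of the 10 genes. Only Chat at P34 had a fitted difference from P30 of at least 0.5 in size, the limit a call required. Smaller differences could not be called.

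**Figure D2:**
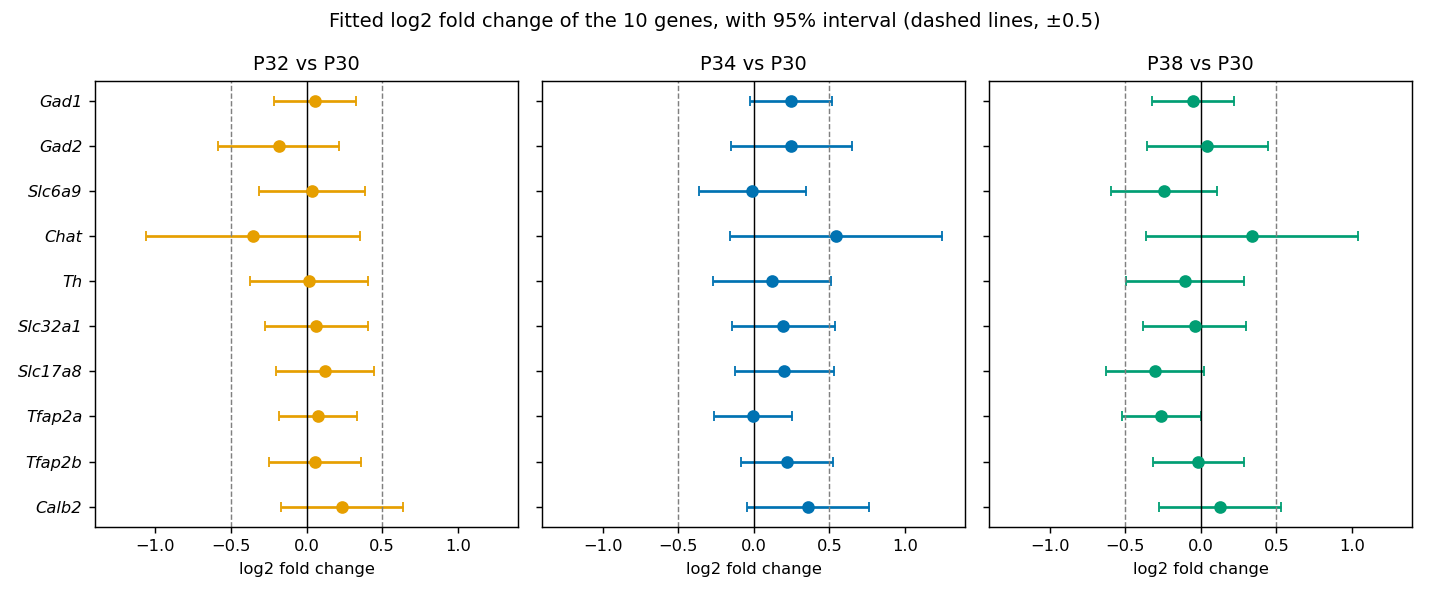
Fitted log2 fold change against P30 (horizontal axis) of the 10 genes (rows) at P32, P34 and P38, with 95% intervals as bars and dashed lines at ±0.5. No gene passed the adjusted test; 8, 8 and 3 of the 10 points lie above 0 at the 3 ages.

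The signs of these differences, none of which passed the test, were as follows. At P32 8 of the 10 genes had a fitted value above 0, with a median log2 fold change of 0.05, at P34 8 had one, with a median of 0.21, and at P38 3 had one, with a median of −0.05. Over all genes the shares above 0 were 48.5, 49.8 and 48.2% and the medians −0.01, 0.00 and −0.01. From P34 to P38 all 10 genes had a value below 0, with a median of −0.24, where 49.3% of all genes were above 0. By edgeR 0 of the 10 passed the test (37 genes or 0.199% of all did, all higher), and by DESeq2 0 passed (0.774% of all genes did). Gad1 and Slc17a8 had an unadjusted edgeR p of at most 0.05, as 5.08% of all genes did. These comparisons share the P30 or the P34 mice, and the 10 genes are not independent of each other.

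These signs rested in part on single mice. P34 mouse 7 was the highest of the 12 mice in 7 genes (Gad1, Gad2, Chat, Th, Slc32a1, Tfap2b and Calb2), and P38 mouse 10 was the lowest in 7 (Gad1, Slc6a9, Th, Slc32a1, Slc17a8, Tfap2a and Tfap2b). Without P32 mouse 6 the median at P32 against P30 was −0.01, with 4 genes above 0. Without P34 mouse 7 the median at P34 against P30 was 0.15, with 9 genes above 0, and that of P38 against P34 was −0.16, with 9 genes below 0 and 1 above. Without P38 mouse 10 the median at P38 against P30 was 0.05, with 7 genes above 0, and that of P38 against P34 was −0.12, with 10 genes below 0. Without P38 mouse 11 the same medians were −0.18, with 8 genes below 0, and −0.37. P38 mouse 10 also had the highest summed CPM of 10 rod and cone genes of the 12 mice (102036, against 55570.3 to 92550.5 in the others), the largest share of counts on its 10 top genes (13.9%, against 9.39 to 13.2%) and the lowest TMM factor, by which edgeR rescales library size (0.900, against 0.949 to 1.05), and their part in its low values was not tested. In the fit with a length term 10 genes were above 0 at P32, the median was 0.08 at P34 and −0.16 at P38 (9 genes below 0), and 3 were above 0 between P34 and P32 (median −0.09), where 8 were without that term (0.13). In the fit with the lens covariate the median at P34 was 0.11. The summed CPM of the 10 genes was 1382 to 1456 at P30, 1481 to 1586 at P32, 1457 to 1916 at P34 and 1287 to 1503 at P38. In whole retina a lower value could be fewer amacrine cells or less of the RNA in each cell, and these cannot be told apart.

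Markers of ganglion cells had fitted values above 0 at P34 and P38, and none of them passed the test. The summed CPM of 10 ganglion cell markers, which include Sncg, Nefl and Thy1, was 916 to 1299 at P30, 1001 to 1179 at P32, 1237 to 1768 at P34 and 1299 to 1568 at P38. At P34 10 of the 10 had a fitted value above 0, with a median of 0.48, and 0 were called by edgeR (9 at an unadjusted p of at most 0.05, a level reached by 10.5% of all genes). At P38 10 of the 10 were above 0 again, with a median of 0.36, where 7 of the 10 amacrine genes were below 0. Of 5 horizontal cell markers, which include Calb1, 5 were above 0 at P34, with a median of 0.42, and 0 were called by edgeR (1 at an unadjusted p of at most 0.05). Their summed CPM was 119 to 128 at P30, 117 to 152 at P32, 120 to 186 at P34 and 122 to 131 at P38. Of 9 bipolar cell markers 3 were above 0 at P34, with a median of −0.03, and 4 at P38, with one of −0.01. Of 10 rod and cone markers 9 were above 0 at P34 and 9 at P38, with medians of 0.13 and 0.24, and none of these markers was called. Since Calb2 is also a ganglion cell gene, these values stand beside it, and the part of ganglion cell RNA in Calb2 was not tested.

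Per length of gene, the 10 genes differed widely in level. In RPKM, which are CPM divided by the summed exon length in kilobases, means over the 12 mice were 264 ± 48.3 for Calb2, 52.8 ± 6.26 for Gad1, 43.4 ± 6.15 for Slc6a9, 29.9 ± 3.67 for Tfap2b and 23.8 ± 3.32 for Slc32a1 (SD, n = 12). They were 13.2 ± 2.31 for Gad2, 7.93 ± 0.940 for Tfap2a, 5.56 ± 0.949 for Slc17a8, 2.83 ± 0.973 for Chat and 2.31 ± 0.297 for Th. The general inhibitory genes were thus above the genes of single subtypes, Slc17a8, Chat and Th. The ranges over the 12 mice did not overlap between Calb2 and Gad1 and between Slc32a1 and Gad2, and overlapped between all other neighbours in this order. Chat was above Th in 9 of the 12 mice. The order was the same with the length of the longest transcript, by which Gad1 had 112 ± 13.3 RPKM.

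Genes of the list varied together over the mice to differing degrees. Over the 45 pairs of the 10 genes the median Pearson r of log2 CPM over the 12 libraries was 0.54, with 26 pairs above 0.5 and 5 below 0, and without P32 mouse 4 it was 0.62, with 29 pairs above 0.5. The 9 pairs of Calb2 had r of −0.24 to 0.37, with 4 below 0, and without P32 mouse 4 they had −0.18 to 0.66, with 2 below 0. The highest pair was Th with Slc32a1 (r = 0.947). Among all tested genes, those like Tfap2b included Ntng1 (r = 0.976), and those like the mean of the 10 included Ptpro, Gria3, Rapgefl1 and Galnt17 (r = 0.921 to 0.931). Gad1 was most like Asic2 (r = 0.943) and Phyhip, Gad2 like Lonrf2 (r = 0.977) and Sez6l, Slc6a9 like Prelid3a (r = 0.926), and Chat like Phf24 (r = 0.974) and Camk2a. Slc17a8 was most like Tmem169 (r = 0.927) and Drd1, Tfap2a like Gm4211 (r = 0.916) and Rps6ka1, and Calb2 like Abhd12 (r = 0.968) and Sncg (r = 0.965), the last a ganglion cell marker. These are descriptions over 12 libraries that share group, depth and P32 mouse 4.

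A wider list of 49 other genes of amacrine cells was read from the same fit, of which 47 were tested. Ptf1a and Foxn4, factors of amacrine development, were too low to be tested. By edgeR 0 of the 47 passed at P32 and 0 at P38, and 1, Penk, passed at P34, where it was lower. At an unadjusted p of at most 0.05 there were 1, 7 and 3 of the 47 at P32, P34 and P38, beside the 5.64, 10.5 and 5.64% of all genes. At P34 38 of the 47 had a value above 0, with a median of 0.17, against 19 at P32 and 21 at P38 (medians −0.05 and −0.03). The 3 P34 mice were all above the 3 P30 mice in 13 of the 47, where this was so for 10.4% of all genes. All 6 genes of the GABA handling list, which holds Gad1, Gad2 and Slc32a1, were above 0 at P34 (0.17 to 0.30), and 0 of the 6 passed the test (0 at an unadjusted p of at most 0.05).

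With the 9 cKO mice taken as 1 group, none of the named genes of these lists passed the test. The fitted log2 difference from P30 was 0.10 for Abat, which breaks GABA down. It was 0.14 for Glrb and 0.40 for Glra1, subunits of the glycine receptor, the latter with a standard error of 0.50. Among cholinergic genes it was 0.36 for Slc18a3 and 0.13 for Ache, which encodes acetylcholinesterase. Among dopaminergic genes it was −0.33 for Gch1, which makes the cofactor of tyrosine hydroxylase, and −0.12 for Slc18a2, the vesicular monoamine transporter. The factors Neurod6 and Ebf1 had 0.49 and 0.24, the calcium-binding proteins Pvalb and Calb1 had 0.28 and 0.14, and the peptide genes Crh and Penk had 0.63 and −1.0. All edgeR adjusted p of these differences rounded to 1.0. When the mean of the 3 ages was taken in the fit of the 4 groups instead, Penk passed, at −1.4 (edgeR adjusted p = 0.0342).

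**Figure D3:**
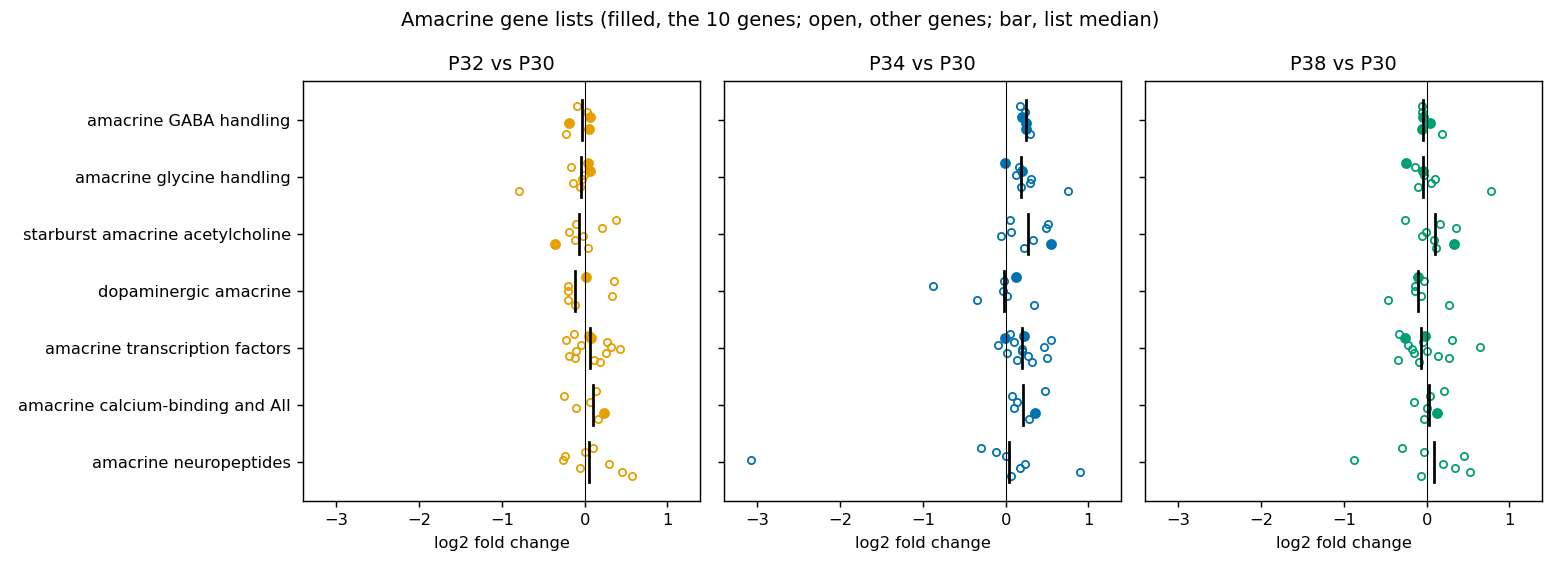
Fitted log2 fold change against P30 (horizontal axis) of genes in 7 amacrine lists (rows) at P32, P34 and P38. Filled points are the 10 genes, open points other genes and black bars list medians; Penk, at −3.08 at P34, is the 1 gene that passed the test.

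Penk, the precursor of the enkephalin peptides found in a subtype of amacrine cell, was the 1 gene of the lists that passed the edgeR test against P30. Penk measured 127, 112 and 91.8 CPM in the P30 mice, 128, 106 and 42.3 in the P32 mice, 16, 11 and 12.2 in the P34 mice and 70.2, 62.4 and 47.9 in the P38 mice. The P34 mice were below all other mice, and the P38 mice lay between them and P30. Against P30 its log2 fold change at P34 was −3.08 (standard error 0.34; edgeR adjusted p = 0.0015), and at P38 it was −0.87 (standard error 0.32; edgeR adjusted p = 0.847), which did not pass. From P32 to P34 Penk fell (−2.81; edgeR adjusted p = 0.0041), and from P34 to P38 it rose (2.20; edgeR adjusted p = 0.0206). The fall from P30 to P34 passed without any single mouse. The fall from P32 did not pass without P34 mouse 8 (−2.70) or in a fit of only the P32 and P34 mice. In those fits 0.0736 and 0.062% of all genes passed from P32 to P34 (0.242% in the main fit). The rise did not pass without P34 mouse 7, 8 or 9 or P38 mouse 10 or 11 (2.08 to 2.38). In those fits 0.0421 to 0.11% of all genes passed from P34 to P38 (0.199% in the main fit). With the lens or the ciliary covariate neither passed (−2.29 and −2.04 for the fall from P32, 1.84 and 1.5 for the rise), and with the length covariate the fall from P32 did not pass (−2.03). Over all genes 0.0537, 0.0483 and 0.0537% passed from P32 to P34 with the lens, ciliary and length covariates (0.242% without). From P34 to P38 0.0698 and 0.0322% passed with the lens and ciliary covariates (0.199% without).

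The summed level of ciliary body and iris markers was also lowest at P34. The summed CPM of 8 genes of the ciliary body and iris was 149 to 289 at P30, 111 to 170 at P32, 77.0 to 88.6 at P34 and 107 to 123 at P38, and 6 of the 8 were called lower at P34 (0.66% of all genes were). Over the 12 libraries the Pearson r of log2 CPM of Penk was 0.947 with Otx1, 0.916 with Zic2, 0.910 with Col9a1, 0.900 with Zic1, 0.868 with Msx1 and 0.834 with Acta2, while it was 0.397 with Myh11 and −0.79 with Opcml, whose values lay in the opposite direction. None of these 8 genes was at 0 in all mice. With the score of these genes as a covariate the Penk difference at P34 was −1.91 and did not pass (edgeR adjusted p = 1.0). In that fit 0% of all genes passed at P34, against 0.66% without the covariate. The score was itself lowest in the P34 mice (1.10 to 1.54, against 1.78 to 4.00 in the others), so score and group cannot be told apart here. Of the 10 genes above none shared the fall of Penk at P34, where their values against P30 ran from −0.01 to 0.54.

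**Figure D4:**
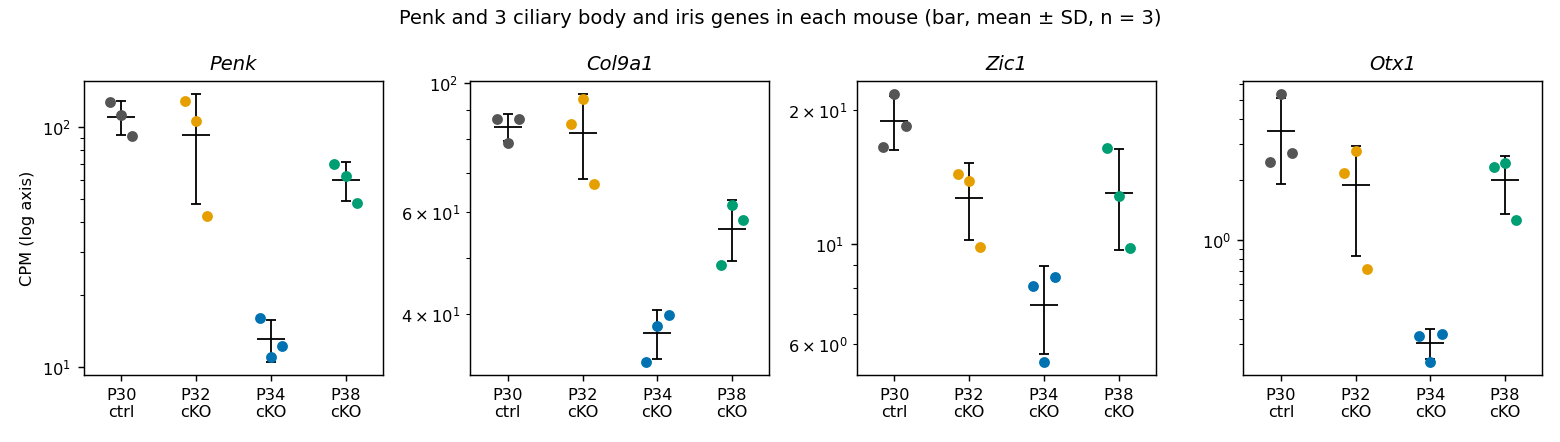
CPM on a log axis (vertical) of Penk and of Col9a1, Zic1 and Otx1 in each mouse (points), for P30 control mice and cKO mice at P32, P34 and P38 (horizontal axis), with the mean and SD of 3 mice as bars. In all 4 genes the P34 mice are the lowest, with Penk at 11 to 16 CPM.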

How the data were processed

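Whole retinas of 12 mice were sequenced by the authors with a stranded mRNA kit as single reads. The submitters' processing notes name bcl2fastq 2.17.1.14, STAR 2.5.3a, HTSeq 0.6.1p1 and the mm10 build. The authors deposited raw counts per Ensembl gene, as whole numbers without normalization, 1 set per mouse. Reads that aligned to several positions (23.7 to 32.2% of all), fell on no gene (6.53 to 13.7%) or were ambiguous (0.646 to 0.696%) carry no gene and were left out of library sizes and tests.

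TMM factors and CPM came from edgeR 4.0.16 under R 4.3.3. Genes passing edgeR's filter over the 4 groups were fitted in 1 quasi-likelihood model with 1 mean per group, and all cKO mice against P30 in a second fit. P-values were adjusted by Benjamini-Hochberg over 18628 genes, and calls required an adjusted p no higher than 0.05 together with a difference of 0.5 or more on the log2 scale. The standard error is the fold change divided by the root of F, and the 95% intervals use the fit's degrees of freedom. Log2 CPM used a prior count of 2. Symbols, positions and exon lengths came from GENCODE M21 (GRCm38), which named 99.9% of the genes. The procedure was tested on simulated data, where 95.2% of intervals held the true value and 4 of 18432 genes were falsely called.

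The 10 genes, the other lists and the tests were chosen with earlier results of these data known. Other list genes are named where they passed the test, or were among the 2 of their list with the smallest unadjusted p with all cKO mice as 1 group. Genes most like each of the 10 are the 2 with the highest Pearson r (5 for the mean of the 10). Some genes that these rules name are not reported here. Alternatives were DESeq2 1.42.0 (test and size factors), other filters, a robust fit, fits of only the groups compared, the mean of the 3 ages in the 4-group fit, other thresholds, and leaving out each mouse. Xist, lens, ciliary body and gene length covariates were chosen after seeing the data. Reads over single exons of Otx2 were not analysed here.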

Additional observations from a re-analysis of the deposited data

Results flagged for a closer look

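P32 mouse 4 was apart from the other 8 cKO mice in 2 of the 10 genes by Dixon's test at 95%, by which chance alone flags about 1 in 20 groups. Gad2 was 47.2 CPM in this mouse, and the ratio of its gap to the range was 0.504, above the limit for 9 mice. Chat was 4.80 CPM, with a ratio of 0.497. The same mouse stood apart in the length pattern described above, and the part of that pattern in these 2 values was not tested.

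Penk differed between ages of the knockout by the test of the difference itself. It was lower at P34 than at P32 by a log2 fold change of −2.81 and higher at P38 than at P34 by one of 2.20, both past the edgeR threshold. Both calls were lost with the lens covariate (−2.29 and 1.84) and with the ciliary covariate (−2.04 and 1.5), and the first also with the length covariate (−2.03). Calls over all genes were fewer in these fits too. Between P34 and P32 they were 10, 9 and 10 genes with the lens, ciliary and length covariates (45 without). Between P38 and P34 they were 13 and 6 with the lens and ciliary covariates (37 without). The summed CPM of the ciliary body and iris markers was lowest at P34 too, although the mean of Opcml was highest there.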

How the results depend on the processing

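No paired analysis was possible because the mice carry the numbers 1 to 12 and no number is shared between groups. The count of called genes among the 10 was 0 in each comparison and stayed 0 under every alternative but these. For P34 against P32 it was 2 without P32 replicate 6 (range 0 to 2 over left-out mice; Chat and Gad2), 1 by the DESeq2 Wald test (Chat) and 1 at an unadjusted p (Chat), where 14.3, 8.65 and 14.4% of all genes passed. For P38 against P34, and for any difference, it was 1 at an unadjusted p (Slc17a8; 3.81 and 17.2% of all genes). Among the other amacrine genes, the count at P34 against P30 was 1 (Penk; 0.66% of all genes). It became 2 by DESeq2 (with Ebf1), 4 at an unadjusted p and 0 with the ciliary covariate (1.98, 6.27 and 0% of all genes). At P38 it became 1 (Penk) at an unadjusted p (3.46% of all genes). For P34 against P32 it was 1 (0.242% of all genes). It became 6 by DESeq2, 3 with no filter on low counts and 8 without P32 replicate 6 (8.65, 1.93 and 14.3% of all genes). None was called without P34 replicate 8 (Penk −2.70) or in a fit of only the P32 and P34 mice (0.0736 and 0.062% of all genes). Nor was any called with the lens (−2.29), ciliary (−2.04) or length (−2.03) covariate (0.0537, 0.0483 and 0.0537% of all genes). For P38 against P32 it was 0 and became 3 by DESeq2, 1 with no filter and 4 without P32 replicate 6 (6.05, 0.591 and 10.2% of all genes). For all cKO mice against P30 it was 0 and became 1 (Penk, −1.4) with the mean of the 3 ages in the fit of the 4 groups (0.36% of all genes). Penk kept its call at P34 against P30 without any single mouse.

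Of 1150 values of single genes under alternatives, 1066 kept their sign and side of the threshold, 12 fell below it, 6 passed it and 66 changed sign, the last in 29 of 50 values, and the cause was not tested. With the ciliary covariate, signs changed to −0.10 for Gad1, −0.22 for Gad2, −0.19 for Chat, −0.044 for Th, −0.25 for Slc17a8, −0.067 for Tfap2b and 0.27 for Penk (all cKO mice against P30), to −0.041 for Gad2 and 0.072 for Slc32a1 at P38, to −0.017 for Slc17a8 and 0.13 for Penk at P32 and to −0.10 for Slc17a8 at P34. With the lens covariate they changed to −0.057 for Gad2, −0.012 for Th and −0.031 for Slc17a8 (all cKO mice). With the length covariate they changed to 0.074 for Gad2 and 0.0018 for Chat at P32, −0.18 for Gad2 and −0.022 for Chat at P38, −0.022 for Gad2 (all cKO mice) and −0.070 for Gad2 between P34 and P32. With Xist as covariate they changed to 0.11 for Slc6a9 and 0.014 for Tfap2a at P34, 0.039 for Slc6a9 (all cKO mice), 0.079 for Tfap2b and −0.027 for Calb2 at P38.

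Leaving out 1 mouse at a time moved values across 0 as follows. At P32 the ranges were −0.0092 to 0.11 for Gad1, −0.39 to 0.010 for Gad2, −0.060 to 0.17 for Slc6a9, −0.031 to 0.098 for Th, −0.0045 to 0.14 for Tfap2a, −0.022 to 0.16 for Tfap2b and −0.58 to 0.082 for Penk. At P34 they were −0.093 to 0.030 for Slc6a9 and −0.091 to 0.065 for Tfap2a. At P38 they were −0.13 to 0.046 for Gad1, −0.071 to 0.15 for Gad2, −0.29 to 0.016 for Th, −0.21 to 0.085 for Slc32a1 and −0.15 to 0.12 for Tfap2b. With all cKO mice they were −0.024 to 0.13 for Gad2, −0.033 to 0.093 for Th, −0.029 to 0.095 for Slc17a8 and −0.14 to 0.012 for Tfap2a. With 3 mice per group, the spread between mice limits what could be called.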
